A study of Arabidopsis thaliana with 5 samples.

Results

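The array of the Arabidopsis thaliana line CAMTA.1.2 was compared with the Col-0 array on which no line is named, 2 arrays of the 5 in the series, chosen by the ecotype and line in the sample labels. The CAMTA.1.2 plants carry, in the Col-0 background, a T-DNA from the vector pROK2 brought in by vacuum infiltration with Agrobacterium tumefaciens, and the labels give the third (T3) generation. The gene hit, the zygosity and the number of plants pooled are not stated. Both arrays hold RNA of whole plants at growth stage 1.04, grown on Gamborg's B-5 medium at 18 degrees and 65% humidity with 16 h of light and 8 h of dark. The other 3 arrays, used here only as points of reference, hold a Col-0 line called CAMTA.6.2 (a segregating T-DNA line made with pROK2), plants of the accession WS without a line name, and CAMTA.1, a line in WS whose modification the labels do not describe. All 5 groups have 1 array, so each value below is a single measurement without a replicate, no difference was tested, and sizes are described.

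CAMTA proteins are transcription factors that bind calmodulin, the protein through which many calcium signals are read, and recognise DNA with a CGCG core. In Arabidopsis the family is best known for holding salicylate-dependent defence genes in check and for promoting early expression of cold-response genes. A T-DNA line is normally checked on the targeted gene, but the annotation names probe sets for only 2 of the 6 CAMTA genes, and both were close to or under the floor. The intensity of AT4G16150 (CAMTA5) was 21.7 on the Col-0 array and 15.5 on the CAMTA.1.2 array, and that of AT1G67310 (CAMTA4) was 16.1 and 9.76. The insertion could therefore not be checked on these arrays. The source names also go against the line labels, since the Col-0 array carries KO1 and the CAMTA.1.2 array KO2, so each array is called by its ecotype and line label and every direction rests on those labels.

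The accession label of both arrays held on ECS1, a gene whose expression is known to differ between accessions, with 6832 on the Col-0 and 4865 on the CAMTA.1.2 array against 97.3 on WS and 39.1 on CAMTA.1. The 3 named leaf markers of 7 listed (RCA, LHB1B2 and PSAE-1, of carbon fixation and light harvesting) were bright on both, with summed intensities of 8001 and 9177 and a range of 6172 to 12100 over the other arrays. Of 6 root markers 4 were named, with sums of 174 and 142, and AT4G26010 and AT2G39040 were under the floor on both arrays. The only anther marker named of 5, ATA20, had 163 and 67.7, and no probe set named any of the 9 seed or 5 flower organ markers. As signs of array and RNA quality, the scanner background was 60.73 for Col-0 and 75.57 for CAMTA.1.2, the outlier cells numbered 20 and 58, and the 3'/5' ratio of the control probe sets was 2.64 and 2.68 for ubiquitin and 1.64 and 1.94 for GAPDH. The part of these gaps in the differences below was not tested.

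On the CAMTA.1.2 array 126 of 8247 probe sets (1.53%) were lower by 2-fold or more and 33 (0.400%) were higher by as much. Among the 5194 above the floor on either array these were 2.43% and 0.635%. Values under 18.1, the floor, were set to it before any fold was taken, so a fold with 1 side under the floor is a bound and is written as at least that size. Bounds made up 8 of the higher and 26 of the lower probe sets. Lower probe sets outnumbered higher ones although the centre of the differences was near 0. The 4636 probe sets above the floor on both arrays had a median log2 difference of 0.04, with 90% of them between -0.70 and 0.58 (the 5th and 95th percentiles).

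Lower probe sets were found at most levels of signal. They made up 2.34% of those with a geometric mean up to 50, 2.67% from 50 to 100, 3.04% from 100 to 300 and 2.17% from 300 to 1000. Above 1000 there were 259 probe sets, of which 0 were lower and 1 was higher. Many differences were close to the limit, since 37 of the 126 lower and 12 of the 33 higher probe sets were less than 2.2-fold apart, and a further 60 lower and 34 higher ones lay between 1.8-fold and 2-fold. At the other end, 27 probe sets were at least 3-fold lower and 5 at least 3-fold higher. Of the 159, 46 lower and 13 higher probe sets name 1 gene, 1 names several and 99 name none, so most of what differs is known only by probe set.

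**Figure D1:**
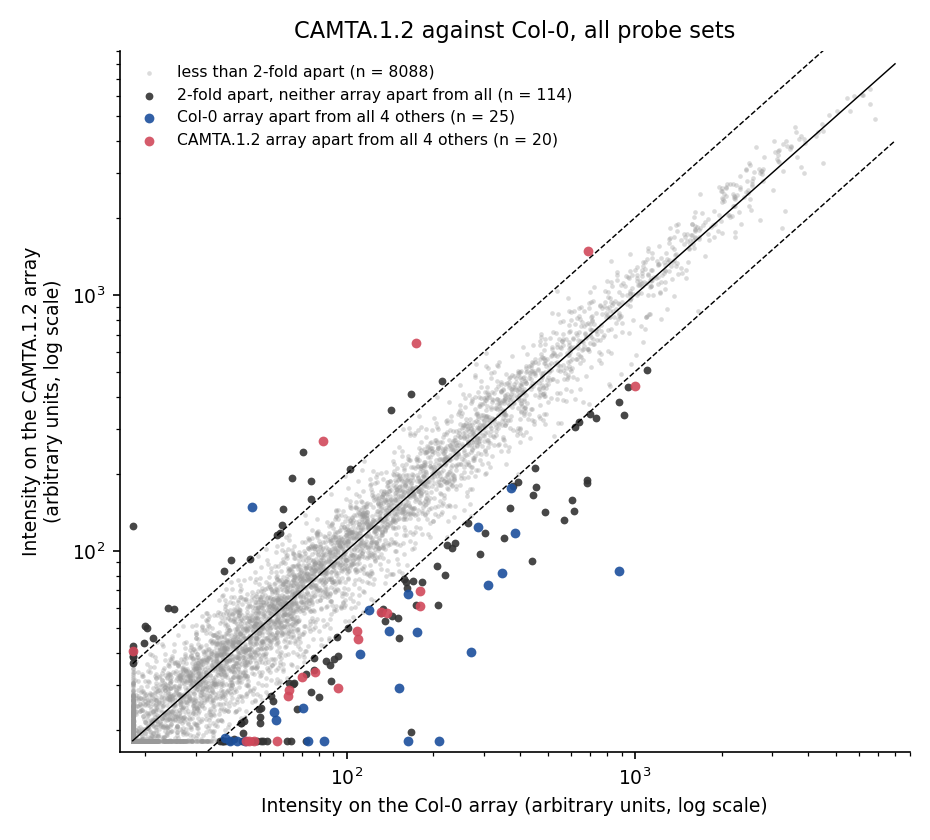
Intensity of each of 8247 probe sets on the Col-0 array (x) and the CAMTA.1.2 array (y), in arbitrary units on log scales, with values under the floor of 18.1 drawn at it. The solid line marks equal intensity and the dashed lines 2-fold. Points 2-fold apart are coloured by whether the Col-0 array (25) or the CAMTA.1.2 array (20) stands apart from all 4 other arrays, or neither does (114), and most of them lie below the diagonal.

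A difference between 2 arrays can lie in either of them, and the other 3 arrays serve as points of reference. These 3 differ from Col-0 by line, by accession or by both, and none repeats either array. They describe where an array stands apart but cannot settle which of the 2 is unusual. The Col-0 array was at least 2-fold above each of the other 4 at 24 probe sets and below each of them at 1. All 24 are among the 126 lower probe sets, and 10 of them name 1 gene. The CAMTA.1.2 array was at least 2-fold below each of the other 4 at 16 probe sets, 5 of them naming 1 gene, and above each of them at 4. The other 86 lower and 28 higher probe sets fell into neither kind. For comparison, CAMTA.6.2 stood above all others at 67 probe sets and below at 27, WS at 14 and 12, and CAMTA.1 at 16 and 31.

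**Figure D2:**
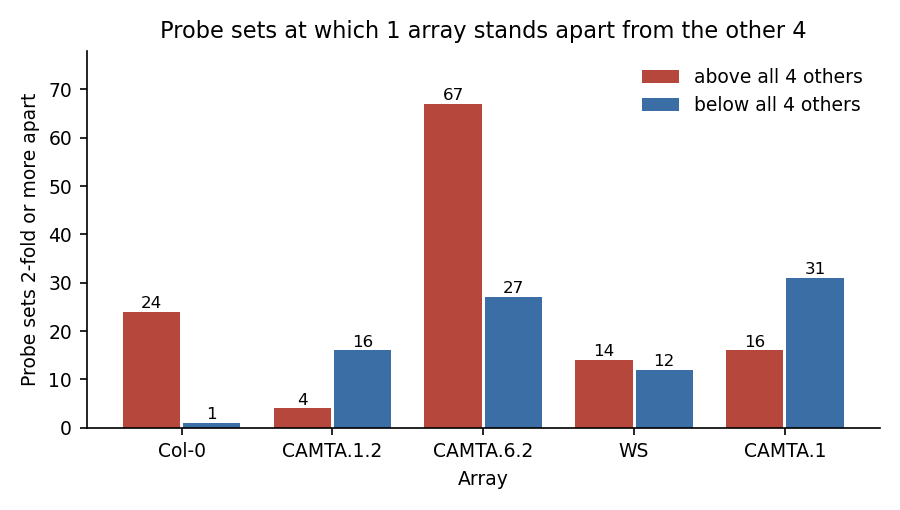
Number of probe sets (y) at which each array (x) is at least 2-fold above or at least 2-fold below every one of the other 4 arrays. The Col-0 array has 24 above and 1 below, and the CAMTA.1.2 array has 4 above and 16 below.

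Each of the other 3 arrays was also placed on the side of Col-0 or of CAMTA.1.2 by the midpoint of the log2 values of these arrays. The Col-0 and CAMTA.1.2 values that set the midpoint also picked the probe sets. A Col-0 value that was extreme by chance would by itself place the other arrays nearer CAMTA.1.2. The same counts were not made over all probe sets. The counts below therefore describe positions only, and how far they follow from the choice of probe sets was not tested. At the 126 lower probe sets the CAMTA.1 array lay nearer the CAMTA.1.2 value at 86, the CAMTA.6.2 array at 73 and the WS array at 55. All 3 lay on the CAMTA.1.2 side at 37 probe sets and none of them at 30. At 27 probe sets the arrays of CAMTA.6.2 and CAMTA.1 lay on the CAMTA.1.2 side and the WS array on the Col-0 side. The opposite arrangement occurred at 1. At the 33 higher probe sets the picture differed, with WS nearer CAMTA.1.2 at 16, CAMTA.1 at 13 and CAMTA.6.2 at 8. There, 9 probe sets had WS alone on the CAMTA.1.2 side, and 4 had CAMTA.6.2 and CAMTA.1 there without WS.

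CAMTA.1 against WS is the other comparison of a line with its own accession that has no array in common with this one. Over all 8247 probe sets, 3.71% were at least 2-fold lower and 2.41% higher on the CAMTA.1 array. Among the 126 lower probe sets, 39 were 2-fold lower and 2 were 2-fold higher in CAMTA.1 than in WS. By kind, these were 9 of the 24 at which Col-0 stood above all arrays, 30 of the 86 in neither kind, and 0 of the 16 at which CAMTA.1.2 stood below all. The kinds were themselves set in part by the WS and CAMTA.1 values, which limit how these 2 arrays can differ. How far the split by kind follows from that choice was not tested. Among the 33 higher probe sets, 9 were 2-fold lower and 3 were 2-fold higher in CAMTA.1 than in WS. Of the 5300 probe sets above the floor on WS or CAMTA.1, 5.77% were lower and 3.75% higher in CAMTA.1.

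At the level of genes, with the brightest probe set standing for each, 42 of 3602 named genes (1.17%) were at least 2-fold lower on the CAMTA.1.2 array and 13 (0.361%) at least 2-fold higher. The lower genes were measured on both arrays in 30 cases and are bounds in 12. They include genes of calcium and calmodulin signalling, defence peptides and enzymes, peroxidases, and proteins of the cell wall. In the accounts that follow, values on all 5 arrays are intensities in the order Col-0, CAMTA.1.2, CAMTA.6.2, WS and CAMTA.1.

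**Figure D3:**
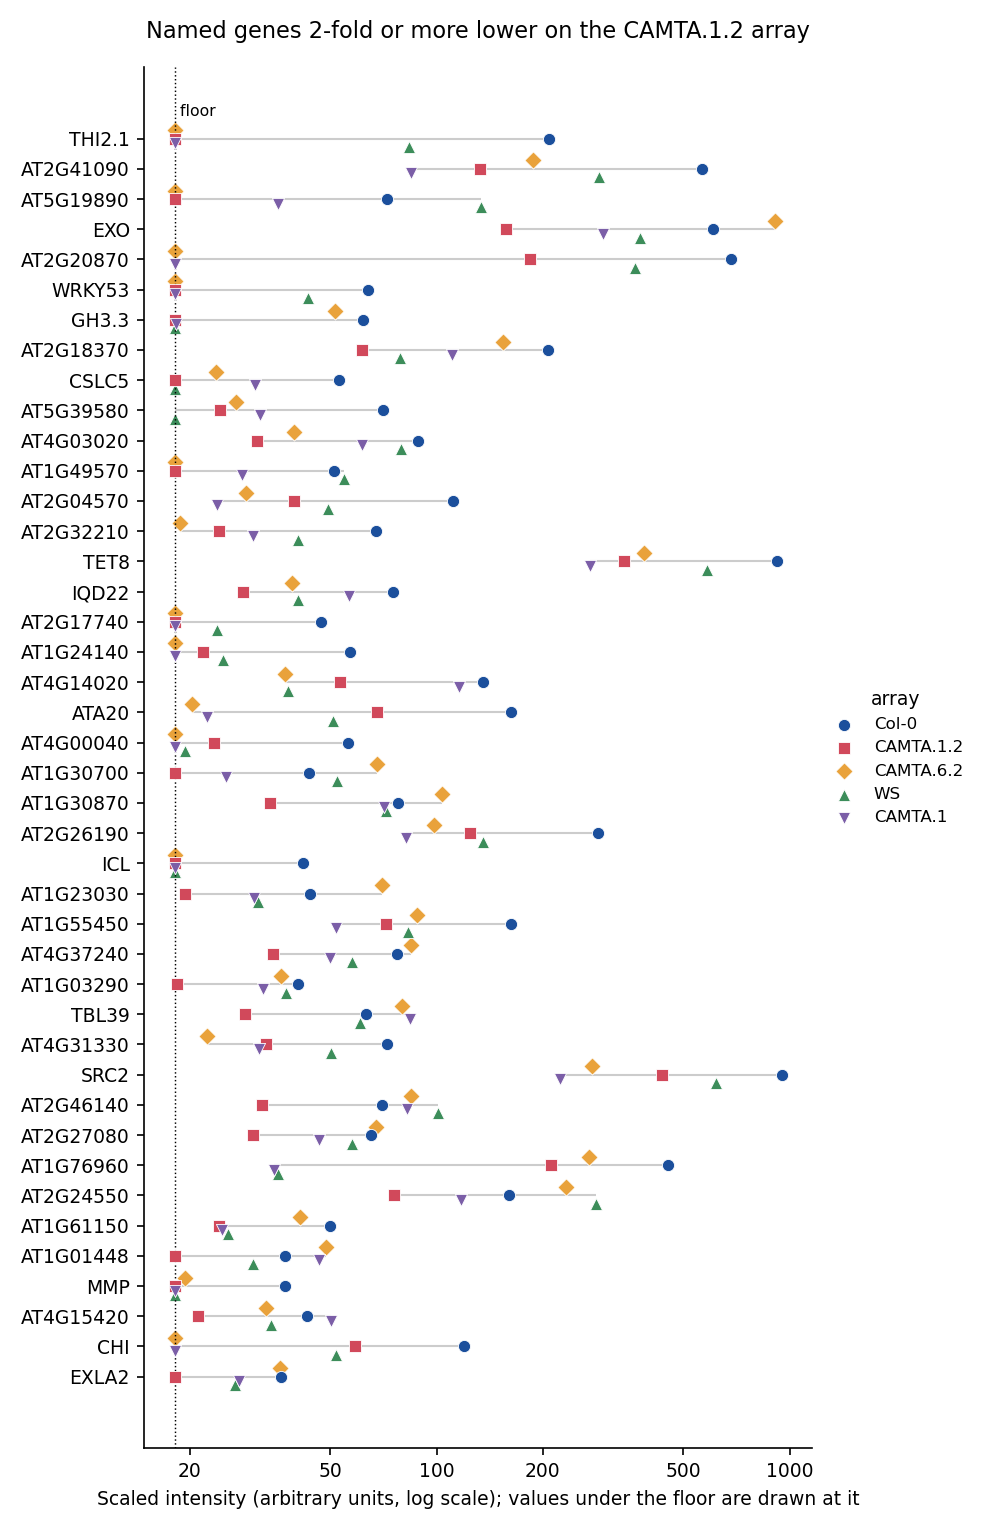
Scaled intensity (x, arbitrary units, log scale) of the 42 named genes at least 2-fold lower on the CAMTA.1.2 array, ordered by the size of the difference, with 1 symbol per array and symbols of CAMTA.6.2, WS and CAMTA.1 shifted up or down so that all can be seen. The Col-0 array is the highest of the 5 for THI2.1, AT2G41090, TET8, SRC2 and AT2G26190, whereas for TBL39, AT2G46140 and AT1G30870 the CAMTA.1.2 array is apart on the low side.

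The lower genes include 4, picked here from among them, whose products bind calcium, calmodulin or membranes through a C2 domain. How many of all named genes are of this kind was not counted. AT2G41090, which encodes a calmodulin-like calcium-binding protein, had 566, 132, 188, 288 and 84.5, and was 4.28-fold lower on the CAMTA.1.2 array. It was highest on the Col-0 array, next on WS, and lowest on CAMTA.1. IQD22 encodes a protein with the IQ motif that binds calmodulin. Its values were 75.4, 28.2, 38.8, 40.4 and 56.5, with CAMTA.1.2 the lowest of the 5, 2.68-fold under Col-0. AT2G26190, a calmodulin-binding family protein gene outside the list, had 286, 124, 98.3, 136 and 81.9. Here the Col-0 array stood at least 2-fold above every other array, and CAMTA.1.2 lay among the rest. SRC2 encodes a C2-domain protein, a fold that binds membranes and often calcium, and was 2.18-fold lower, with 950.5, 435, 276, 617 and 223. The probe sets of AT2G41090 and SRC2 have a suffix that marks probes shared by several sequences, so their signal may not come from these genes alone.

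Of 45 listed genes of calcium signalling, 5 had a named probe set. AT2G41090, IQD22 and SRC2 were at least 2-fold lower, against 1.17% over all named genes, and none was higher. This list was chosen with earlier results of these data known, so the share describes these 5 genes only. All 5 were above the floor and their median log2 difference was -1.13, against 0.03 over the 2095 named genes above the floor, of which 2.00% were lower. AT4G27280, an EF-hand calcium-binding protein gene, had 565 on the Col-0 array and 390 on the CAMTA.1.2 array, a log2 difference of -0.53. CRT1b, which encodes calreticulin, a calcium store protein of the endoplasmic reticulum, had 146 and 130. A broader group of genes with IQD or CML symbols, put together after the values were seen, had 7 members, of which IQD22 alone was 2-fold apart. Of the 7, 3 were under the floor on both arrays. CML42, a calmodulin-like protein gene, had 59.5 and 59.8.

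The defence-related genes THI2.1, WRKY53, CHI and AT1G30700 were among the lower ones and were picked here from them. How many of all named genes are defence-related was not counted. AT4G07820, of the family of pathogenesis-related protein 1, went the other way. Its brightest probe set had 75.0 on Col-0 and 187 on CAMTA.1.2. THI2.1 encodes a thionin, a small antimicrobial peptide that jasmonate is known to induce, and its brightest probe set had 209 on the Col-0 array, 83.4 on the WS array and values under the floor on the other 3. It was at least 11.5-fold lower on the CAMTA.1.2 array, the highest value or bound of a named gene. A second probe set showed the same order, with 163 on Col-0, 54.9 on WS and the rest under the floor. The third, whose suffix marks an incomplete match, had 24.4, 15.9, 44.1, 22.9 and 27.0 on the 5 arrays, with CAMTA.6.2 the highest, and did not show that order. The Col-0 array stood at least 2-fold above all others for the first and second probe sets.

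WRKY53, whose product regulates leaf senescence and defence, had 64.0 on the Col-0 and 43.2 on the WS array and was under the floor on the other 3, so it was at least 3.53-fold lower. Of 7 genes with WRKY symbols, WRKY53 was the only one 2-fold apart, against 1.17% lower over all named genes. The group was put together after the values were seen. WRKY47 had 62.4 and 39.7 and WRKY6 had 126 and 91.3 on Col-0 and CAMTA.1.2, and the median log2 difference of the 7 was -0.29. CHI, a chitinase gene, had 120 on Col-0, 58.8 on CAMTA.1.2 and 51.8 on WS, and was under the floor on CAMTA.6.2 and CAMTA.1. It was 2.03-fold lower, with Col-0 above all other arrays. AT1G30700, an FAD-binding berberine bridge family gene, had 43.4, 18.0, 67.8, 52.2 and 25.3, but its other probe set had 37.5 on Col-0 and 41.7 on CAMTA.1.2.

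Of 14 listed salicylate defence genes WRKY53 alone was named, and of 13 jasmonate genes THI2.1 and THI2.2, the latter under the floor on both arrays. STZ, a zinc finger protein that represses transcription under stress, was the only one named of 10 genes that published work ties to CAMTA factors. It had 423 on the Col-0 and 586 on the CAMTA.1.2 array, a log2 difference of 0.47. STZ and AT4G27280 were also the 2 named members of 13 early touch and wound response genes, with none 2-fold apart. These lists are thus represented by too few genes to describe the pathways.

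Peroxidases of class III are secreted enzymes that use hydrogen peroxide to cross-link wall polymers or to make reactive oxygen, and 4 of them were lower. AT5G19890 had 72.5 on the Col-0 array and under the floor on CAMTA.1.2, while the WS array was the highest with 133. AT5G39580 had 70.7, 24.3, 27.0, 8.37 and 31.5, and here the Col-0 array stood above all others. AT1G49570 was at least 2.83-fold lower, with 51.2 on Col-0, under the floor on CAMTA.1.2 and CAMTA.6.2, and 54.5 on WS. AT1G30870 showed the reverse arrangement. It had 77.9, 33.6, 104, 71.6 and 70.8, so that CAMTA.1.2 was the array that stood apart, 2.32-fold under Col-0. The probe set of AT1G30870 has the suffix of shared probes.

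Of the 73 genes of this family, 46 had a named probe set and 33 were above the floor on either array. The 4 lower ones are 8.70% of the 46, against 1.17% over all named genes, none was 2-fold higher, and the family was put together after the values were seen. Of the 33, 20 had a difference below 0 and 13 above it, with a median of -0.18, against 0.03 over all 2095 named genes above the floor. With a higher floor, at the 50th percentile, AT1G49570 lay under 2-fold, at -0.81. PRXR1, the brightest of the family, had 3025 and 2578 on Col-0 and CAMTA.1.2, AT2G37130 had 708 and 831, and AT2G38380 had 698 and 734. The 4 lower genes were dim by comparison, with at most 77.9 on the Col-0 array.

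**Figure D4:**
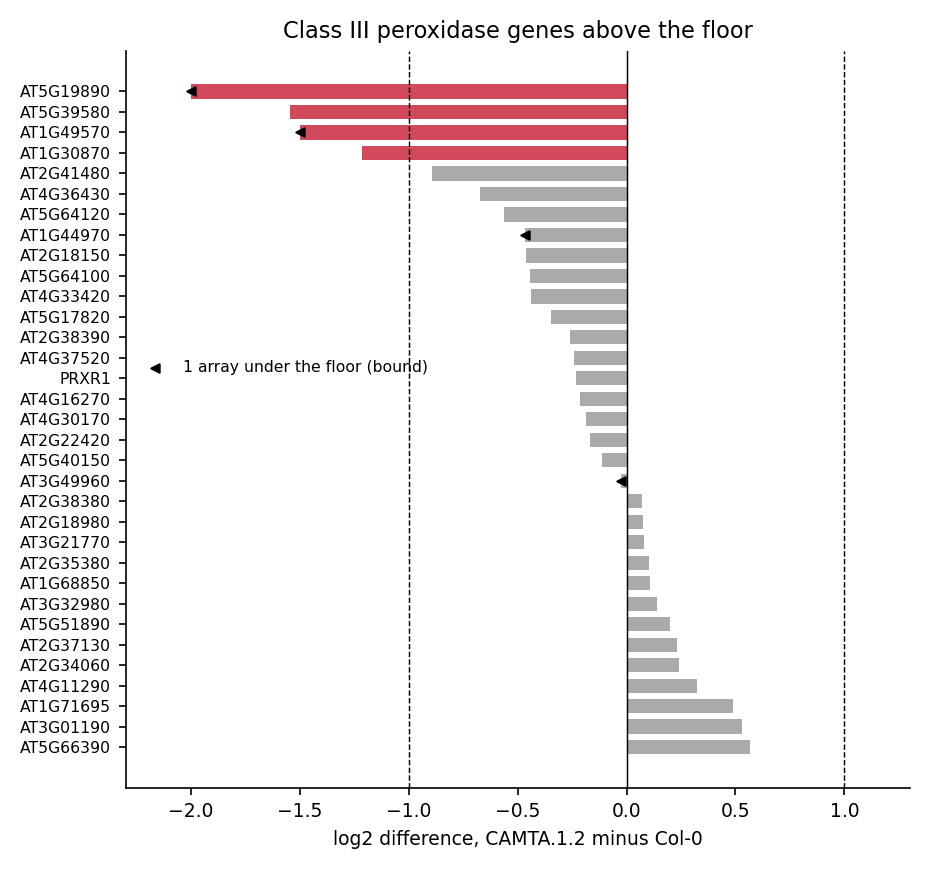
Difference between the CAMTA.1.2 and Col-0 arrays (x, log2) for the 33 class III peroxidase genes above the floor on either array (y), from the lowest to the highest. Dashed lines mark 2-fold, red bars pass it and triangles mark bounds with 1 array under the floor. The 4 genes past the limit are all lower on the CAMTA.1.2 array, and the highest gene, AT5G66390, lies at 0.57.

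Genes of the cell wall and of expansion were lower in part. EXO, a gene induced by brassinosteroids that promotes cell expansion, had 607, 157, 909, 378 and 296, and was 3.86-fold lower on the CAMTA.1.2 array, which was the lowest of the 5 while CAMTA.6.2 was the highest. CSLC5, of the family that makes the backbone of xyloglucan, was at least 2.92-fold lower, from 52.8 on the Col-0 array. TBL39, of a family that acetylates wall polysaccharides, had 63.2, 28.7, 79.7, 60.8 and 84.2. The 4 arrays other than CAMTA.1.2 lay close together for TBL39. EXLA2, an expansin-like gene, had 36.3 on Col-0 and was under the floor on CAMTA.1.2, at least 2.00-fold lower.

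The families around them were put together after the values were seen. Among their genes above the floor, 1 of 7 TBL, 1 of 6 expansin, 1 of 3 CSL and 0 of 1 XTH genes were 2-fold lower. Over all 2095 named genes above the floor, 2.00% were lower. Of 12 genes with TBL symbols, TBL39 alone was 2-fold apart, and TBL24 followed with 52.3 and 29.8. Of 7 expansin genes EXLA2 was lower and none was higher, and EXPA8, an alpha-expansin, had 171 and 284, a log2 difference of 0.74. Of 5 CSL genes CSLC5 was lower, and CSLB03 had a value under the floor on Col-0 and 34.7 on CAMTA.1.2. The 5 XTH genes, of xyloglucan remodelling, had none 2-fold apart, but 4 of them were under the floor on both arrays. So were 5 of the TBL, 2 of the CSL and 1 of the expansin genes. A difference of 0 for such genes comes from the floor. The list of brassinosteroid and expansion genes, had 2 named members of 17, EXO and EXPA8, which went opposite ways.

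Other lower genes encode proteins of the cell surface or secreted proteins, picked here from the lower genes. AT2G20870, a putative cell wall protein gene, had 681, 184, 18.2, 366 and 16.3 and was 3.71-fold lower, and its other probe set had 438 on Col-0 and 91.1 on CAMTA.1.2. The arrays of CAMTA.6.2 and CAMTA.1 were far lower still. TET8, a tetraspanin of the plasma membrane and of extracellular vesicles, had 920.1, 339, 387, 584 and 272 and was 2.72-fold lower, whereas TET7 had 74.0 and 102 on Col-0 and CAMTA.1.2. AT2G18370, of the lipid transfer protein family, had 207, 61.3, 154, 78.5 and 110. CAMTA.1.2 was its lowest array, with WS close above. AT2G04570, a GDSL lipase gene, had 111, 39.5, 28.8, 49.2 and 23.9, with Col-0 above all others.

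The matrix metalloproteinases, which cut proteins outside the cell, were lower for 2 of the 5 in Arabidopsis, against 1.17% over all named genes. This family was put together after the values were seen. AT1G24140 had 56.8 on the Col-0 array, 21.8 on CAMTA.1.2 and 24.8 on WS and was under the floor on the other 2, and MMP (AT1G70170) had 37.2 on Col-0 and was under the floor on CAMTA.1.2, at least 2.05-fold lower. Both are dim, and with the floor at the 50th percentile neither was 2-fold lower, at -0.96 for AT1G24140 and -0.34 for MMP. For AT1G24140 the Col-0 array stood above all others. The other 3 genes had differences from 0 to 0.42, and the 1 at 0 was under the floor on both arrays.

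Hormone genes differed singly. GH3.3, which encodes an enzyme that couples auxin to amino acids, had 61.9 on the Col-0 array and 51.5 on CAMTA.6.2, while CAMTA.1.2 and WS were under the floor and CAMTA.1 was barely above it with 18.3, so it was at least 3.42-fold lower. WES1, a relative of GH3.3, had 159 and 97.1 on Col-0 and CAMTA.1.2. IAA20, of the Aux/IAA repressors of auxin response, had 63.1 and 110. Of 26 auxin genes 6 were named, and GH3.3 was the only one past 2-fold, against 1.17% lower over all named genes. The median of the 6 was 0. Of the 6, 2 were under the floor on both Col-0 and CAMTA.1.2, and the median of the other 4 was -0.22.

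Further genes at which Col-0 stood above all others were ICL, AT4G00040 and ATA20. ICL encodes isocitrate lyase, an enzyme of the glyoxylate cycle that seedlings use to turn stored fat into sugar. It had 41.8 on the Col-0 array and at most 10.5, under the floor, on the others. AT4G00040, of the chalcone and stilbene synthase family, had 56.1, 23.4, 6.61, 19.4 and 3.39. ATA20, first found in anthers, had 163, 67.7, 20.2, 50.9 and 22.3. The Col-0 array was thus the highest for all 3, and CAMTA.1.2 was second for AT4G00040 and ATA20.

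Lower genes at which CAMTA.1.2 was the outlying array were fewer. AT2G46140, which encodes a late embryogenesis abundant protein (LEA27), had 69.9, 32.0, 84.7, 101 and 82.4, and was 2.18-fold lower than on the Col-0 array. TBL39 and AT1G30870, described above, complete the lower named genes of this kind. AT2G37480 and AT1G04480 had such a probe set too, but each had another that was brighter. For AT2G37480 the first had 179 on Col-0 and 60.7 on CAMTA.1.2 and the second 240.4 and 294. AT1G04480, a ribosomal protein gene, had 999.9 and 439 on a probe set of incomplete match, and 1348 and 1149 on its brightest.

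The other lower genes measured on both arrays ranged from 2.04-fold to 2.85-fold. AT2G17740 and AT1G01448 are bounds, at least 2.60-fold and at least 2.06-fold lower. AT4G03020, a WD40 repeat protein gene, had 88.3, 31.0, 39.4, 79.1 and 61.4. AT4G14020 had 136, 53.1, 37.1, 37.8 and 116, and was the only one of the 42 that was 2-fold higher in CAMTA.1 than in WS. AT1G76960 had 451, 211, 270, 35.6 and 34.5, so that its widest gap followed the accession. AT1G55450, a methyltransferase gene, had 162 on Col-0 and between 52.0 and 88.1 on the rest. AT1G23030, which encodes a U-box ubiquitin ligase, had 43.7 and 19.3 on Col-0 and CAMTA.1.2, and AT2G27080, of the hydroxyproline-rich LEA group, 65.3 and 30.2. AT2G24550, AT2G32210, AT2G17740, AT4G31330, AT4G37240, AT1G03290, AT1G61150, AT1G01448 and AT4G15420 had at most 161 on either array.

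Genes higher on the CAMTA.1.2 array were led by HIS1-3, a linker histone that drought and abscisic acid are known to induce. It had 82.7, 269, 37.5, 130 and 60.2, so that the CAMTA.1.2 array was at least 2-fold above every other and 3.25-fold above Col-0. Its probe set has the suffix of shared probes, so the signal may not come from HIS1-3 alone. None of the other cold and abscisic acid genes was 2-fold apart. COR47, a dehydrin gene, had 483 on the Col-0 and 610.1 on the CAMTA.1.2 array. KIN2, a cold-induced gene, had 762 and 540, COR15B 90.7 and 71.1, LTI30 101 and 78.6, and OSM34, which encodes osmotin, 826 and 591. Of 18 listed genes 6 were named, HIS1-3 was the only one 2-fold apart, and the median log2 difference was -0.36. Over all named genes, 0.361% were at least 2-fold higher.

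**Figure D5:**
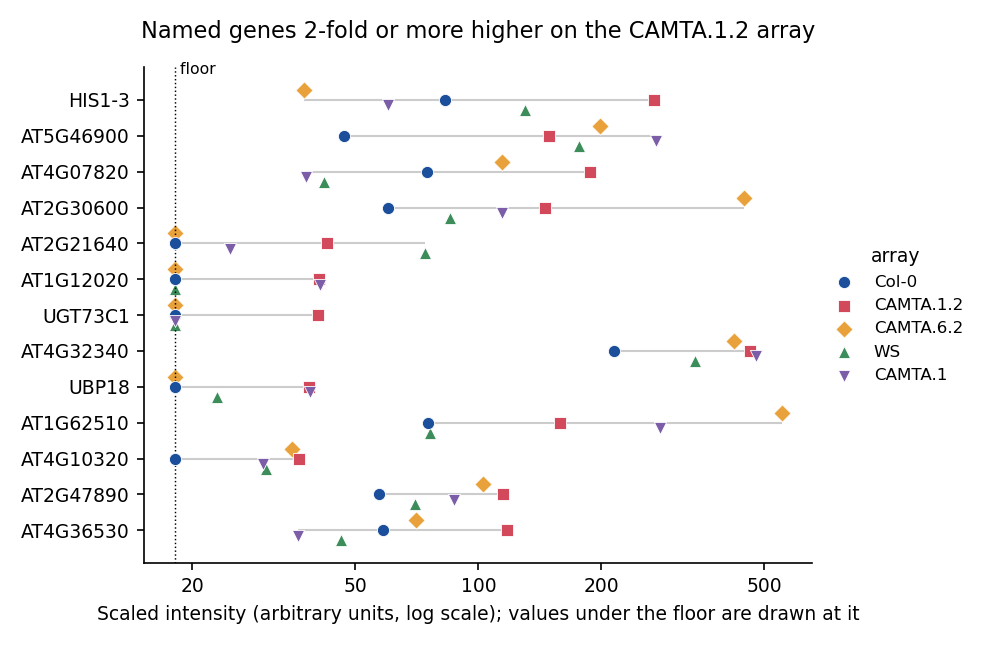
Scaled intensity (x, arbitrary units, log scale) of the 13 named genes at least 2-fold higher on the CAMTA.1.2 array, ordered by the size of the difference, with 1 symbol per array. The CAMTA.1.2 array is apart from all others for HIS1-3 and UGT73C1, and the Col-0 array is apart on the low side for AT5G46900.

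For AT5G46900, of the lipid transfer protein family, the Col-0 array was the outlying one. It had 46.8 there and 149, 198, 177 and 272 on the other 4, and was 3.17-fold higher on CAMTA.1.2. AT1G62510, of the same broad family, had 75.2, 159, 552, 76.2 and 278, with Col-0 and WS low and alike and the 3 lines higher. AT2G30600, a BTB domain protein gene, had 60.3, 146, 447, 85.5 and 114, with CAMTA.6.2 highest, and its other probe set had 19.6 on Col-0 and 32.5 on CAMTA.1.2. AT4G32340 had 214 on the Col-0 array and between 338 and 478 on the rest.

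UGT73C1, a UDP-glucosyltransferase gene, was under the floor on the 4 arrays other than CAMTA.1.2, where it had 40.7, at least 2.25-fold higher. It was the only one 2-fold apart of 20 genes with UGT symbols, and UGT72E1, which acts on lignin precursors, followed with 165 and 301. Of the 20, 7 were under the floor on both Col-0 and CAMTA.1.2. AT2G21640, a gene known as a marker of oxidative stress, lay under the floor on Col-0 and CAMTA.6.2. It had 42.6 on CAMTA.1.2, 74.1 on WS and 24.8 on CAMTA.1. AT1G12020 and UBP18, a ubiquitin-specific protease gene and the only one 2-fold apart of 4 with UBP symbols, were under the floor on Col-0 and had 40.9 and 38.6 on CAMTA.1.2. The CAMTA.1 array had about the same values for both, 41.1 and 38.8. Of the 4 UBP genes, 2 were under the floor on both Col-0 and CAMTA.1.2.

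AT4G07820, of the family of pathogenesis-related protein 1, had 75.0 on Col-0, 187 on CAMTA.1.2, 114 on CAMTA.6.2 and 41.8 on WS for its brightest probe set, with CAMTA.1 the lowest, and values under the floor on its other 3. AT2G47890, a B-box zinc finger gene, had 57.3, 115, 102, 70.0 and 87.3 on a probe set with the suffix of shared probes. AT4G36530, a hydrolase gene, had 58.5 and 118 on Col-0 and CAMTA.1.2. AT4G10320, an isoleucine tRNA synthetase gene, was under the floor on Col-0 and had 36.4 on CAMTA.1.2, but 25.7 and 22.3 on its other probe set. AT2G47890 and AT4G36530 lay at the limit, each 2.01-fold higher, and AT4G10320 was at least 2.01-fold higher.

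Unnamed probe sets held some of the largest differences, and 4 are given here, chosen after their values were seen. Probe set 13282_s_at had 8.57, 125, 11.1, 151 and 1.23, at least 6.89-fold higher on CAMTA.1.2, with the WS array alike and the other 3 under the floor. Probe set 14627_i_at had 174, 652, 155, 95.2 and 143, so that CAMTA.1.2 stood above all arrays. Among the lower ones, 15125_f_at had 883, 83.2, 216, 252 and 52.7 and was 10.6-fold lower, with Col-0 above all. Probe set 20227_s_at had 167, 19.6, 43.0, 93.4 and 11.9. Their suffixes mark probes shared by several sequences or an incomplete match, as in 36 of the 126 lower and 12 of the 33 higher probe sets, against 24.3% of all.

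Processes with named genes but no gene 2-fold apart included photosynthesis. Its 6 named genes of 30 had a median log2 difference of 0.16, from -0.71 for LHCB4.3, a minor light-harvesting protein, with 356 and 218, to 0.40 for PSAE-1, a photosystem I subunit, with 2495 and 3283. GI, the one named of 12 clock genes, had 110 and 118. MCCA, of leucine breakdown and the one named of 10 sugar starvation genes, had 33.4 and 23.4. The 2 named heat shock protein 70 genes of 8, Hsp70-2 and AT3G09440, had log2 differences of 0.44 and 0.35. The 3 cytochrome P450 genes named by symbol lay between -0.25 and 0.31, and none of the 15 listed genes of glutathione and redox enzymes was named.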

How the data were processed

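RNA of 5 plant samples was measured on one-colour Affymetrix Arabidopsis arrays of 8297 probe sets. TRIzol was used for RNA extraction and the hybridised cRNA carried biotin, per the labels' protocols. The authors deposited 1 linear intensity value per probe set, and each array had a 2% trimmed mean between 100.1 and 100.2, so they had been brought to a common level. The sources used here do not name the method that summarised the probes, and no detection calls were used. Precision is limited by the number of arrays.

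The 50 control probe sets were left out. The floor was the 40th percentile of all values, 18.1. Each array was scaled by the median log2 of 4245 probe sets that passed the floor on every array. Lower values were then raised to the floor, and differences were taken on the log2 scale, with 2-fold as the limit. Steps were tested on simulated data. With 1 array a group no p-value was computed. Python 3.11.15, numpy 2.4.6, pandas 2.3.3 and matplotlib 3.10.9 were used.

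The platform annotation gave 1 gene for 3794 probe sets, several for 70 and none for 4383. Of the 3794, 3784 matched the RefSeq gene table of TAIR10.1 by gene ID and took its symbols, and the brightest probe set by mean stood for a gene. Named genes were those 2-fold apart, those at which either array stood apart, and members of gene lists. The comparison and the lists were chosen with earlier results of these data known. Groups taken by gene symbol, the peroxidases and the metalloproteinases were added after the values were seen, in place of lists by words of the description, which the gene table mostly lacks.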

Additional observations from a re-analysis of the deposited data

How the results depend on the processing

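Each setting was changed alone, and none of the 55 named genes 2-fold apart changed direction under the 5 settings run on them. The values as deposited and quantile normalization left most counts within 1.5 times. The exception was the number of probe sets with CAMTA.1.2 above all others, which was 2 with the values as deposited. A floor at the 30th percentile (10.7) gave 64 higher and 193 lower probe sets, Col-0 above all at 42 and below all at 4, CAMTA.1.2 above all at 8, and 24 higher and 65 lower named genes. A floor at the 50th percentile (29.2) gave 21 higher and 93 lower probe sets, and 8 higher and 28 lower named genes. A 1.5-fold limit gave 253 higher and 414 lower probe sets, and a 3-fold limit 5 and 27. Without shared or family probe sets, an alternative chosen after seeing the data, 21 were higher and 90 lower. Without those at which Col-0 stood apart, also chosen afterwards, 102 were lower and 32 higher. Of the 55 named genes 2-fold apart, 53 stayed so with the values as deposited, 50 with quantile normalization, 55 and 36 with the lower and higher floor, and 52 with the mean over all probe sets of a gene. The last took AT1G30700, AT4G07820 and AT4G10320 under 2-fold, at -0.55, 0.33 and 0.40. The floor settings move the counts by construction, since they change which dim values can differ, and the cause of the other shifts was not tested. No paired analysis was possible because each group has 1 array.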
